A study of Mus musculus with 50 samples.

Results

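The colon of 10 TNBS mice given A1007 at 90 mpk was compared with that of 10 TNBS mice given vehicle, which makes 20 of the 50 libraries of the series. The libraries were chosen by their labels, and every gene that passed a filter on low counts entered the comparison, 17928 of 56691 genes in the deposited table. TNBS (trinitrobenzene sulfonic acid) is a hapten that provokes colitis once it reaches the mucosa, and A1007 is described in the series as a gut-enriched agonist of the aryl hydrocarbon receptor (AhR) that is active by mouth. The question put was how it changes inflammation, the epithelial barrier and fibrosis in this model. Both groups received TNBS, so they differ by A1007 against vehicle, while the 3 other groups of 10 were sham mice and TNBS mice given 10 or 30 mpk. All mice carry the genotype label BALBC and the batch label 1, and mpk is printed as the labels give it. Poly(A) RNA of colon was sequenced, and the series text places the tissue in the distal colon. The sources used here do not give the dosing schedule, the age of the mice or the day and hour of collection. The labels number the libraries 1 to 10 in each group. Each is called a mouse here, although no label says outright that each came from a separate animal, so the p-values measure the spread between libraries.

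The AhR waits in the cytoplasm in a complex with chaperones, among them HSP90 and p23 (gene Ptges3), until a ligand binds. It then enters the nucleus, pairs with ARNT and binds response elements with the core GCGTG, from which it drives genes such as Cyp1a1, Cyp1b1, Tiparp and its own repressor Ahrr. In the gut it responds to ligands from food and bacteria in epithelium and in lymphocytes of the wall, and the enzyme made from Cyp1a1 breaks many of these ligands down again.

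The 2 groups differed in spread as well as in level. Library totals ran from 15324404 to 18916591 counts in vehicle and from 14373337 to 20446967 counts in 90 mpk mice. The SD between mice was larger in vehicle for 84.8% of the genes tested, and the median SD of log2 CPM (counts scaled to library size) was 0.35 in vehicle, 0.21 in 90 mpk and 0.18 in sham mice. Genes of pancreatic acinar cells, which make digestive enzymes, were summed over the 17 of 20 listed genes whose mean in sham mice was under 1 FPKM. They passed 100 CPM in vehicle mice 2, 5, 6 and 9, with 58460 CPM in vehicle 6, in 90 mpk mice 2 and 4, with 612 and 416 CPM, in 1 mouse at 10 mpk and in 2 at 30 mpk, against at most 11.9 CPM in sham mice. Counts are therefore also given without these 9 mice, which leaves 6 vehicle mice and 8 mice of 90 mpk. That smaller set also lacks vehicle mice 9 and 5, whose summed neutrophil genes were the highest of their group. Why calls are lost in it was not tested. The part of acinar tissue in other differences was not tested. Over 10 colon markers, among them Cdx2, Epcam, Muc2 and Slc26a3, the lowest value in any mouse of both groups was 22.3 FPKM (deposited values that scale fragments to exon length and library size). Tissue was sequenced in bulk, so fewer cells of a type and less RNA per cell cannot be told apart.

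At 90 mpk 3266 genes, 18.2% of those tested, changed against vehicle. A change is a Benjamini-Hochberg adjusted p under 0.05 in edgeR's quasi-likelihood test over all 17928 genes, and every adjusted p below is from that test. Of these genes 1277 (7.12% of those tested) were higher at 90 mpk and 1989 (11.1%) lower, and 696 (3.88%) changed at least 2-fold, 126 of them upward (0.703%) and 570 downward (3.18%). The median log2 fold change of all genes was -0.01. Higher genes made up 39.1% of the calls, but 56.8% with quantile normalization, 55.5% with limma on log2 FPKM, 48.0% with a rank-sum test and 46.0% with voom weights, so the balance of directions depends on the processing. Without the 9 mice with acinar transcripts 613 genes were called, 188 higher and 425 lower, and 575 of them were also among the 3266. In 80 genes (0.446%) every 90 mpk mouse had a higher FPKM than every vehicle mouse, and in 56 (0.312%) a lower one.

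The largest rises among genes of at least 2 FPKM in either group were in genes of the crypt base and goblet cells and of the circadian clock. They were the mucosal pentraxins Mptx1 (log2 fold change 2.65) and Mptx2 (2.42), the antimicrobial angiogenin Ang4 (2.59), the intelectin Itln1 (2.31), the clock output genes Dbp (2.45), Ciart (2.09) and Hlf (1.9), and the carboxylesterase gene Ces1c (2.04). The largest falls were in genes of neutrophils, macrophages and the Reg family of secreted lectins. They were Reg2 (-10.07), Reg3a (-8.29) and Reg1 (-7.29), the neutrophil attractant Cxcl3 (-8.78), the calprotectin subunits S100a8 (-8.52) and S100a9 (-7.63), the neutrophil collagenase Mmp8 (-8.42) and the macrophage lectin Chil3 (-7.21). Reg1 was higher at 90 mpk without the 9 mice (0.33, not called), and the calls of Reg2, Reg3a, Mptx1, Mptx2, Ang4, Itln1 and Ces1c were lost without them.

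**Figure D1:**
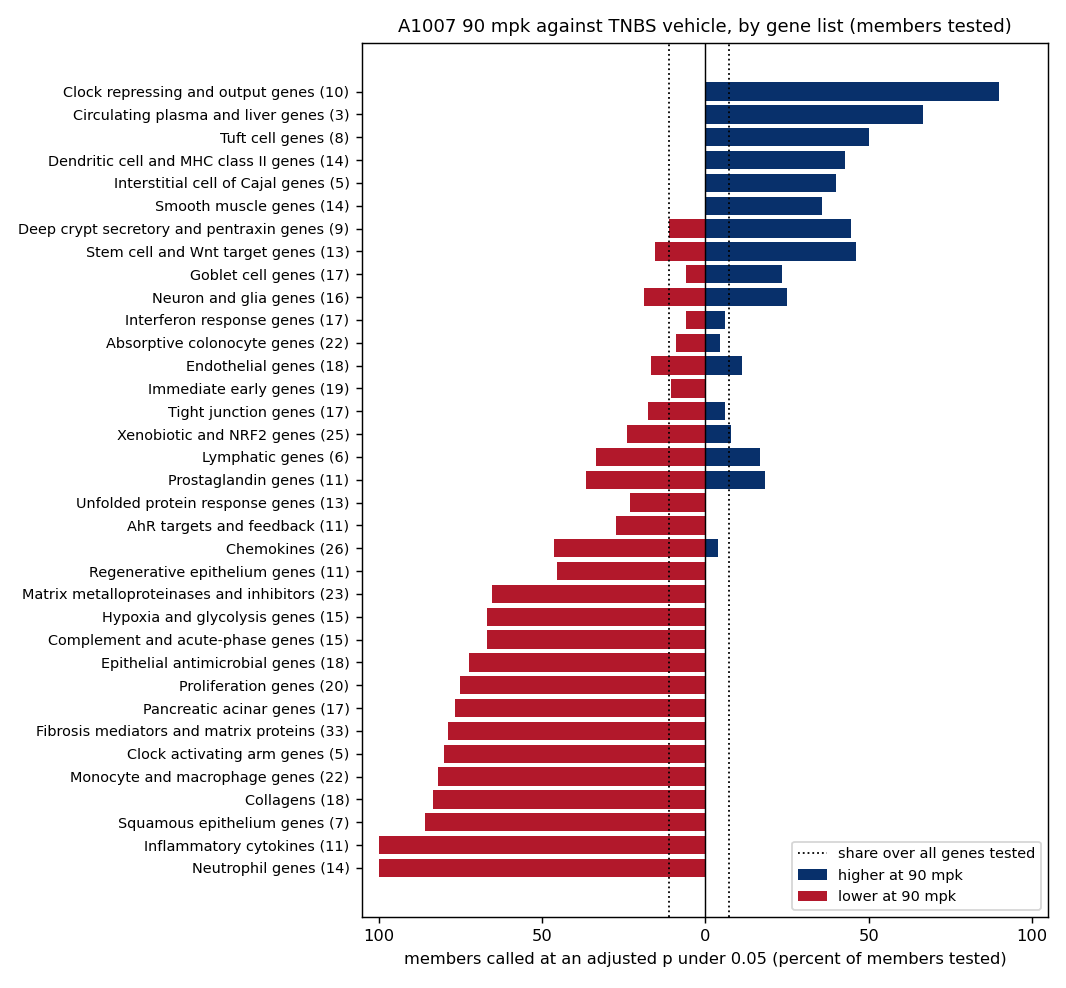
Share of the tested members of each gene list called at an adjusted p under 0.05 in 90 mpk against vehicle mice, in percent, higher at 90 mpk to the right and lower to the left, for lists with at least 2 calls. The dotted lines mark the shares over all genes tested, 7.12% and 11.1%; all 14 neutrophil genes and all 11 cytokines lie on the lower side, and 9 of 10 repressing and output genes of the clock on the higher side.

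None of the targets of the receptor passed the test as higher at 90 mpk. Of 14 AhR targets 11 passed the filter, 0 rose and 3 fell (median log2 fold change -0.17), against 7.12% of all genes higher and 11.1% lower. With so few targets, 0 higher is near the share over all genes. Without the 9 mice 2 targets fell, and with a rank-sum test 2 did. At an unadjusted p under 0.05 the count of higher targets was 0 in edgeR as well, and it was 0 in DESeq2 and every other alternative run. The upstream windows of Cyp1a1, the classic marker of AhR activity, and of Cyp1b1, its relative that changed most, each hold the letters GCGTG once. The 250 bases before each start site are shown from RefSeq on GRCm38.p6, 5′ to 3′ in the direction of the gene, with GCGTG, or CACGC where it lies on the other strand, in capitals.
Cyp1a1 (chr9:57697363-57697612, plus strand): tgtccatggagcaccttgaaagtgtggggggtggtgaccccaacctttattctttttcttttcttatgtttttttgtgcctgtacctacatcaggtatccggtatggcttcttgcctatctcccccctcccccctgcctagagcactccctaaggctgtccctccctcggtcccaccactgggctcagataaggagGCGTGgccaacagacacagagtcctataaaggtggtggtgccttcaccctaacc
Cyp1b1 (chr17:79715062-79715311, minus strand): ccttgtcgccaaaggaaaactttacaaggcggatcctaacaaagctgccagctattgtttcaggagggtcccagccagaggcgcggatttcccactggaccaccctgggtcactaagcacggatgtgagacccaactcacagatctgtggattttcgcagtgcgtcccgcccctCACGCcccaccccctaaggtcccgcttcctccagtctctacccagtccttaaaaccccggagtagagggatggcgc
The match lies at position -54 in Cyp1a1 and at -76 in Cyp1b1, counted from the start site. GCGTG was searched on both strands and was found in 28.2% of 32851 such windows, and in 4 of the 10 AhR targets with a window. A match describes the letters and does not show a binding site.

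Cyp1a1 (ENSMUSG00000032315, chr9:57595211-57611107, plus strand on GRCm39) codes for the hydroxylase that metabolizes AhR ligands. It ranged from 0.04 to 0.66 FPKM (median 0.19) in vehicle mice and from 0.11 to 0.43 FPKM (median 0.275) in 90 mpk mice, with a sham median of 0.35 FPKM. The 90 mpk mice all lay within the range of the vehicle mice. The log2 fold change was 0.15 (SE 0.39, adjusted p = 0.836), with a 95% interval from -0.64 to 0.95. Cyp1b1 (ENSMUSG00000024087, chr17:80008966-80022490, minus strand) codes for a related hydroxylase that is expressed mainly outside the liver. It ranged from 0.16 to 14.5 FPKM (median 0.715) in vehicle and from 0.06 to 0.34 FPKM (median 0.165) in 90 mpk mice. Vehicle mice 6, 5 and 9 were the highest, 7 of 10 vehicle mice lay above every 90 mpk mouse, and the sham median was 0.125 FPKM. Cyp1b1 fell, with a log2 fold change of -4.27 (SE 0.65, adjusted p = 2.96e-05).

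Serpinb2, an inhibitor of plasminogen activators that is also made by activated macrophages, ranged from 0.09 to 66.6 FPKM (median 0.395) in vehicle and from 0.03 to 0.26 FPKM (median 0.095) in 90 mpk mice. Vehicle mice 9, 5, 6 and 8 stood far above the rest, and the log2 fold change was -6.65 (SE 1.02, adjusted p = 3.48e-05). The call of Serpinb2 was lost with a rank-sum test. Tiparp, which codes for an ADP-ribosyltransferase that dampens the receptor, ranged from 5.87 to 15.7 FPKM (median 6.55) in vehicle and from 4.49 to 6.75 FPKM (median 5.29) in 90 mpk mice. Its groups overlapped, and it fell by 0.59 on the log2 scale (adjusted p = 0.00633), a call that is lost without the 9 mice. Nqo1, a quinone reductase induced by both AhR and NRF2, ranged from 9.24 to 30.1 FPKM (median 16.1) in vehicle and from 12.4 to 22.3 FPKM (median 17.7) in 90 mpk mice. The 90 mpk mice lay within the vehicle range, with a log2 fold change of -0.06 and an interval from -0.42 to 0.29. The other tested targets did not pass the test. Their log2 fold changes were -0.20 for Ahrr, 0.01 for Ugt1a6a and -0.17 for Ugt1a7c, 2 glucuronosyltransferase genes whose shared exons make their counts uncertain, 0.34 for the aldehyde dehydrogenase Aldh3a1, -0.41 for the glutathione transferase Gsta1 and 0.18 for Nfe2l2, which codes for NRF2.

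**Figure D2:**
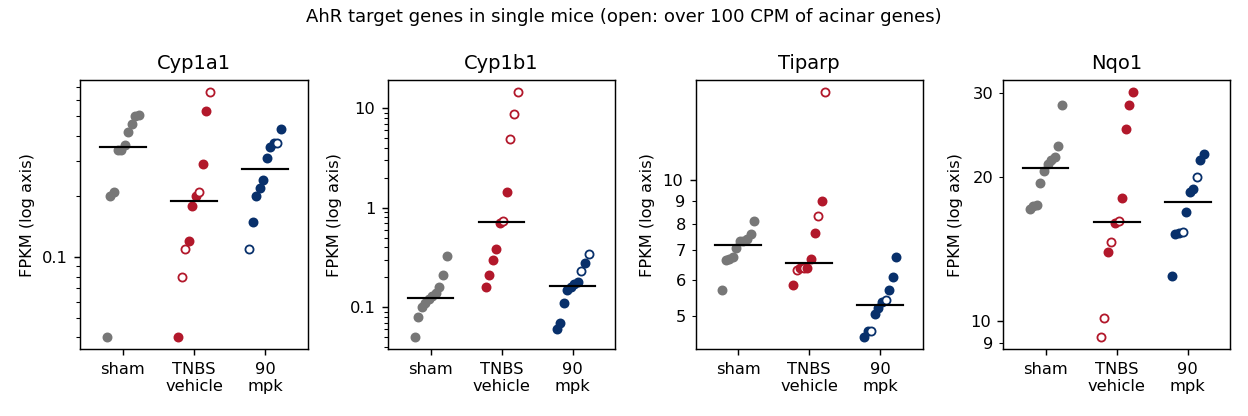
FPKM on a log axis of 4 AhR targets in the sham, TNBS vehicle and A1007 90 mpk mice, 1 point per mouse, with a line at each median and open points for mice over 100 CPM of acinar genes. Cyp1a1 and Nqo1 of the 90 mpk mice lie within the vehicle range, while the Cyp1b1 median is 0.715 FPKM in vehicle and 0.165 FPKM in 90 mpk mice.

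The parts of the receptor machinery differed little in size. Of 8 tested genes 0 rose and 1, Xpo1, the exporter that carries proteins out of the nucleus, fell (log2 fold change -0.25), and 0 were called without the 9 mice. Ahr itself ranged from 4.6 to 6.91 FPKM (median 5.92) in vehicle and from 4.91 to 6.53 FPKM (median 5.67) in 90 mpk mice, a log2 fold change of -0.03, with an interval from -0.17 to 0.11. The partner Arnt had -0.07, its relative Arnt2 0.09, Hsp90aa1 -0.01, Hsp90ab1 0.12 and Ptges3 -0.13. Of 25 xenobiotic and NRF2 genes 2 were higher and 6 lower (1 and 2 without the 9 mice). Over all genes 7.12% were higher and 11.1% lower. Hmox1, the heme oxygenase of stressed cells and macrophages, ranged from 3.58 to 62.4 FPKM (median 16.7) in vehicle and from 3.45 to 6.17 FPKM (median 4.97) in 90 mpk mice. Vehicle 5 was the highest and 8 of the other 9 vehicle mice also exceeded every 90 mpk mouse, and the log2 fold change was -2.01 (SE 0.33, adjusted p = 6.13e-05). Gstm1, a glutathione transferase, ranged from 45.9 to 99.1 FPKM (median 71.8) in vehicle and from 98.2 to 127 FPKM (median 111) in 90 mpk mice, close to the sham median of 112 FPKM. The groups overlapped by vehicle 10 alone, and Gstm1 rose by 0.59 (SE 0.12, adjusted p = 4.85e-04) on the log2 scale. The efflux pump Abcc2 rose as well (1.12), while the cystine carrier Slc7a11 (-1.47), the efflux pump Abcg2 (-0.55) and the monooxygenase Fmo1 (-1.07) fell.

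Transcripts of innate immune cells were lower at 90 mpk. All 14 tested neutrophil genes fell (median log2 fold change -4.15), 9 without the 9 mice, as did 18 of 22 monocyte and macrophage genes (median -1.26, and 10 without those mice). S100a8 (ENSMUSG00000056054, chr3:90576285-90577342, plus strand on GRCm39) and S100a9 code for the calcium-binding pair that neutrophils carry in bulk. S100a8 ranged from 1.07 to 2388 FPKM (median 86.7) in vehicle and from 0 to 4.66 FPKM (median 0.56) in 90 mpk mice. Vehicle mice 9 and 5 were the highest, and vehicle mice 1, 3 and 10 lay within the 90 mpk range. Its log2 fold change was -8.52 (SE 1.48, adjusted p = 1.34e-04). S100a9 ranged from 6.58 to 3904 FPKM (median 189) in vehicle and from 0.38 to 14.7 FPKM (median 1.65) in 90 mpk mice, in the same order of vehicle mice at the top, with -7.63 (SE 1.36, adjusted p = 1.60e-04). The gelatinase Mmp9 ranged from 2.63 to 42.2 FPKM (median 11.4) in vehicle and from 1.24 to 3.46 FPKM (median 2.24) in 90 mpk mice. Vehicle 1 was the only vehicle mouse within the 90 mpk range, and Mmp9 fell by 2.67 on the log2 scale (adjusted p = 1.17e-05). The granulocyte growth factor receptor Csf3r (-3.22), the receptor Trem1 (-5.28), which amplifies neutrophil responses, and the histamine-making enzyme Hdc (-3.75) fell too. The summed level of the neutrophil list had a median of 406 CPM in vehicle, 53.8 CPM in 90 mpk and 39.4 CPM in sham mice. Of the vehicle mice 8 of 10 lay above every 90 mpk mouse, and the 2 highest, mouse 9 with 5246 CPM and mouse 5, are among those with acinar transcripts.

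Among macrophage genes 1 had groups that did not overlap. It was Mrc1, the mannose receptor of tissue macrophages, which ranged from 8.21 to 18.1 FPKM (median 12) in vehicle and from 4.29 to 6.64 FPKM (median 5.39) in 90 mpk mice, with a sham median of 4.45 FPKM. The log2 fold change was -1.26 (SE 0.13, adjusted p = 6.70e-08). The scavenger receptor Msr1 (-2.03), the integrin Itgam (-2.86) and the Fc receptor Fcgr3 (-1.60) fell as well. Spp1, which codes for osteopontin, ranged from 2.28 to 189 FPKM (median 19.7) in vehicle and from 0.66 to 8.87 FPKM (median 1.6) in 90 mpk mice, with overlap at the low end of vehicle and a log2 fold change of -4.30. Arg1, the arginase of wound macrophages, fell by 5.28 on that scale.

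All 11 tested cytokine genes fell (median -2.18), 5 of them without the 9 mice, and 6 with a rank-sum test. Of 26 chemokine genes 12 fell and 1 rose (median -0.31), and 5 fell and 0 rose without the 9 mice. Cxcl1 and Cxcl2, which draw neutrophils through CXCR2, and Il6 are shown with their upstream windows because all 3 fell and hold the NF-κB consensus. Searched on both strands, the consensus lies in 7.25% of the 32851 windows, in 6 of 19 chemokine genes with a window (Cxcl1, Cxcl2, Cxcl3, Cxcl10, Ccl9 and Ccl20) and in 2 of 9 cytokine genes (Il6 and Lif). Capitals mark it in the 250 bases before the start site, from RefSeq on GRCm38.p6.
Cxcl1 (chr5:90890995-90891244, plus strand): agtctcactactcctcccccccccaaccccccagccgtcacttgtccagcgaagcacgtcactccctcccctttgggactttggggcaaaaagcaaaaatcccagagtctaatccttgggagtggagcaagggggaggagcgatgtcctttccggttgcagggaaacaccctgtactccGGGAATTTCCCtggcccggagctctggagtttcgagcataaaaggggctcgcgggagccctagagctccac
Cxcl2 (chr5:90903649-90903898, plus strand): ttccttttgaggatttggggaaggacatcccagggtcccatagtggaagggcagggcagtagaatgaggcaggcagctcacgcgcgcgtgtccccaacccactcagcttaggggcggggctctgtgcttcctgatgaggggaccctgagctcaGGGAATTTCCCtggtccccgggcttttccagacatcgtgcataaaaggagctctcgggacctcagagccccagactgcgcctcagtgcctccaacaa
Il6 (chr5:30012864-30013113, plus strand): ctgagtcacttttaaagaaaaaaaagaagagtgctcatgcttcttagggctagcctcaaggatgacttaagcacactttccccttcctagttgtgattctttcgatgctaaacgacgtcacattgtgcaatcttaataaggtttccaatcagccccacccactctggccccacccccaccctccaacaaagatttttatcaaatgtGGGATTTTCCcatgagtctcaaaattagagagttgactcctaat
Cxcl1 and Cxcl2 each have 2 matches that overlap, 1 on each strand, and Il6 has 1. They describe the letters and do not show binding in this tissue.

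Il6, a cytokine of the acute inflammatory response, ranged from 0.04 to 33.7 FPKM (median 1.08) in vehicle and from 0 to 0.23 FPKM (median 0.07) in 90 mpk mice. Vehicle mice 9, 5 and 2 were the highest and 7 of 10 vehicle mice exceeded 0.23 FPKM, the top of the 90 mpk group. The log2 fold change was -6.29 (SE 0.98, adjusted p = 4.01e-05). Il1b, a cytokine matured by the inflammasome, ranged from 2.51 to 201 FPKM (median 12.9) in vehicle and from 1.31 to 5.48 FPKM (median 1.85) in 90 mpk mice, with a log2 fold change of -4.48 (SE 0.80, adjusted p = 1.58e-04). Vehicle 8, which has no acinar transcripts over 100 CPM, was the highest mouse for Il1b. Il11, a cytokine of fibroblasts (-5.05), Tnf (-1.48) and the alarmin Il33 (-2.00) fell, Il33 not without the 9 mice.

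Cxcl1 ranged from 0.41 to 75.8 FPKM (median 5.94) in vehicle and from 0.11 to 1.14 FPKM (median 0.355) in 90 mpk mice, close to the sham median of 0.305 FPKM. Vehicle mice 5, 9, 2 and 8 were the highest, vehicle 1, 3 and 10 overlapped with the 90 mpk mice, and the log2 fold change was -5.34 (SE 0.85, adjusted p = 5.53e-05). Cxcl2 ranged from 0.08 to 253 FPKM (median 10.2) in vehicle and from 0.06 to 1.64 FPKM (median 0.165) in 90 mpk mice, with -7.06 (SE 1.29, adjusted p = 2.15e-04). The monocyte attractants Ccl2 and Ccl7 fell by 3.31 and 3.30 on the log2 scale. Ccl2 ranged from 1.7 to 64.3 FPKM (median 9.72) in vehicle and from 0.82 to 3.81 FPKM (median 2.08) in 90 mpk mice. The exception was Ccl6, a chemokine of myeloid cells and epithelium in mice, which had medians of 244 FPKM in vehicle and 312 FPKM in 90 mpk mice. Its groups overlapped little, and it rose by 0.37 (SE 0.10, adjusted p = 0.0112), a call lost without the 9 mice.

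**Figure D3:**
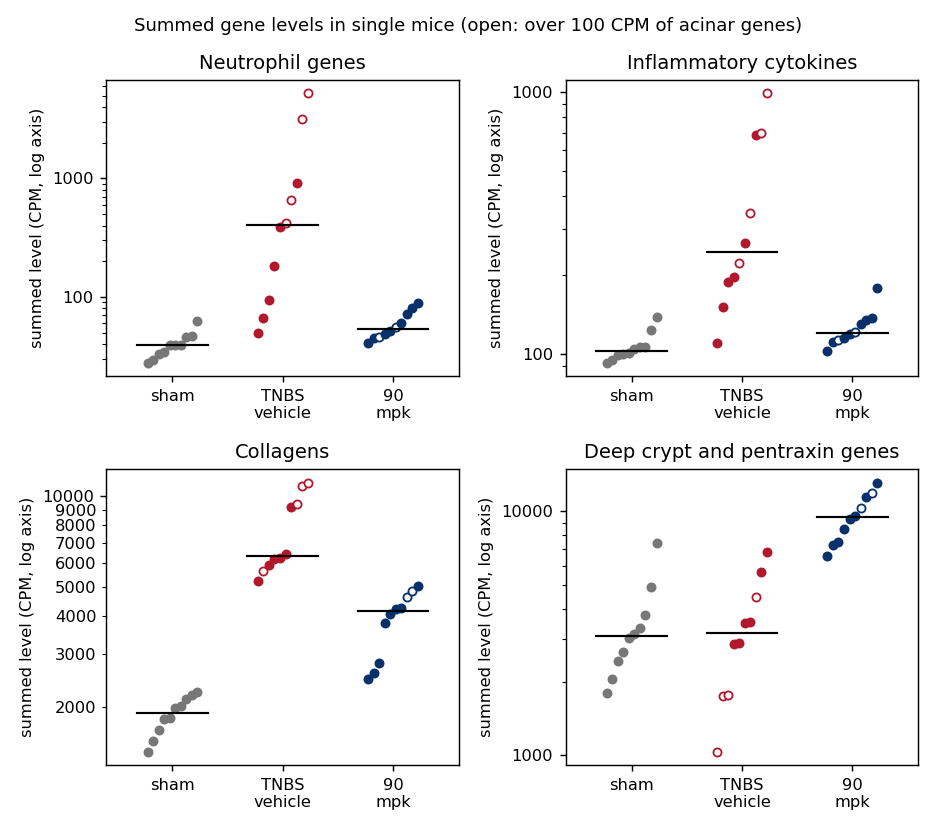
Summed CPM on a log axis of the neutrophil, cytokine, collagen, and deep crypt and pentraxin lists in sham, vehicle and 90 mpk mice, 1 point per mouse, with a line at each median and open points for mice over 100 CPM of acinar genes. Collagen sums of all 10 vehicle mice, from 5229 CPM, lie above the highest 90 mpk mouse at 5043 CPM, while the neutrophil sums overlap in 2 vehicle mice.

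Complement, acute-phase and antimicrobial genes fell with them. Of 15 complement and acute-phase genes 10 fell and 0 rose (median -1.24, and 4 fell without the 9 mice), among them the anaphylatoxin receptors C5ar1 (-2.43) and C3ar1 (-1.21), serum amyloid Saa3 (-6.51) and haptoglobin, Hp (-6.15). Of 18 epithelial antimicrobial genes 13 fell and 0 rose (median -1.50), but 6 fell with a rank-sum test or quantile normalization and 1 without the 9 mice. Lcn2, which binds the iron carriers of bacteria and is made by neutrophils and epithelium, ranged from 0.64 to 340 FPKM (median 16.4) in vehicle and from 0.29 to 1.92 FPKM (median 1.12) in 90 mpk mice. Vehicle 5, 9 and 6, all with acinar transcripts, had from 317 to 340 FPKM, and the remaining 7 had at most 32.3 FPKM. Its log2 fold change was -6.63 (SE 1.09, adjusted p = 7.27e-05), a call lost without the 9 mice. Nitric oxide synthase Nos2 (-3.21), the lectin genes Reg3b (-3.49) and Reg3g (-1.91), whose reads may be shared within the family, and the protease inhibitor Slpi (-3.12) fell too. Prostaglandin genes split into 2 that rose and 4 that fell of 11, while 0 rose and 3 fell without the 9 mice. Among all genes 7.12% were higher and 11.1% lower. Ptgs2, the inducible cyclooxygenase, ranged from 1.6 to 51.2 FPKM (median 9.36) in vehicle and from 1.5 to 3.09 FPKM (median 1.81) in 90 mpk mice, near the sham median of 1.88 FPKM. Its log2 fold change was -3.14 (SE 0.52, adjusted p = 7.67e-05). Ptges, the synthase that follows it toward prostaglandin E2, ranged from 3.25 to 9.75 FPKM (median 4.79) in vehicle and from 1.57 to 2.67 FPKM (median 2.33) in 90 mpk mice. The 2 groups stood apart, and Ptges fell by 1.36 on the log2 scale, with Tbxas1, the thromboxane synthase gene, at -1.10.

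Antigen presentation went the other way in part. Of 14 dendritic cell and MHC class II genes 6 rose and 0 fell (median 0.57), and 0 were called without the 9 mice. H2-Eb1, a class II chain, ranged from 18.9 to 76.5 FPKM (median 46.3) in vehicle and from 51.9 to 134 FPKM (median 70.4) in 90 mpk mice, against a sham median of 39.3 FPKM. The 90 mpk mouse 9 was the highest and vehicle 6 the lowest, and the log2 fold change was 0.71 (SE 0.22, adjusted p = 0.0218), or 0.57 and no longer called without 90 mpk mouse 9 (adjusted p = 0.0629). Cd74, the invariant chain that escorts class II, ranged from 88.3 to 368 FPKM (median 224) in vehicle and from 236 to 654 FPKM (median 339) in 90 mpk mice, with a log2 fold change of 0.71 (adjusted p = 0.0286). H2-Aa (0.71) and H2-Ab1 (0.76) rose by like amounts. The calls of Cd74 and H2-Ab1 were each lost without any 1 of vehicle 5, 6, 7 and 9 or 90 mpk mouse 9 (adjusted p up to 0.0811 and 0.0796), and that of H2-Aa without vehicle 6 or 90 mpk mouse 9 (up to 0.0717). Of 18 B and plasma cell genes 0 rose and 1 fell, Prdm1 (-0.47), a call lost without the 9 mice. It ran against most of that list, which had a median of 0.56 and 11 of 18 positive log2 fold changes. Interferon response genes had 1 of 17 higher, Gbp3 (0.66), and 1 lower, Ifitm3 (-0.63), with a median of 0.24. The shares over all genes were 7.12% higher and 11.1% lower. Of 12 mast cell and eosinophil genes 1 rose and 0 fell. It was Kit (0.54), the receptor of stem cell factor, which is also in the lists of interstitial cells of Cajal and of deep crypt secretory genes. Of the 12 genes 9 had negative log2 fold changes (median -0.18). The calls of Gbp3, Ifitm3 and Kit were lost without the 9 mice as well.

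Genes of the extracellular matrix fell widely. Of 18 collagen genes 15 fell and 0 rose (median -0.95), 11 of them without the 9 mice. Of 33 fibrosis mediators and matrix proteins 26 fell and 0 rose (median -0.94, and 13 without those mice). Of 23 matrix metalloproteinases and inhibitors 15 fell and 0 rose (median -1.20, and 8 without them). Col4a1 (ENSMUSG00000031502, chr8:11248423-11362826, minus strand on GRCm39), a chain of the basement membrane, ranged from 69.2 to 167 FPKM (median 96) in vehicle and from 38.2 to 68.8 FPKM (median 56.5) in 90 mpk mice, against a sham median of 26.4 FPKM. The groups did not overlap, by a narrow margin, and the log2 fold change was -1.0 (adjusted p = 7.65e-05). The fibrillar collagen Col3a1 ranged from 169.8 to 430.1 FPKM (median 208) in vehicle and from 69.7 to 157 FPKM (median 126) in 90 mpk mice, again without overlap, and its log2 fold change was -1.16 (SE 0.21, adjusted p = 1.91e-04). Every 90 mpk mouse lay above the sham median in both genes, that of Col3a1 being 52.4 FPKM. The collagen chains Col1a1 (-1.42), Col5a1 (-1.08), Col5a2 (-1.05) and Col4a2 (-0.93) fell by similar amounts. The summed collagens had a median of 6352 CPM in vehicle, 4154 CPM in 90 mpk and 1914 CPM in sham mice, and all 10 vehicle mice lay above every 90 mpk mouse.

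Timp1, an inhibitor of metalloproteinases, ranged from 4.33 to 513 FPKM (median 48.5) in vehicle and from 1.32 to 10.2 FPKM (median 2.96) in 90 mpk mice. Vehicle 1, 3 and 10 lay within the 90 mpk range, and Timp1 fell by 4.84 on the log2 scale (adjusted p = 6.22e-05). Vcan, the proteoglycan versican, ranged from 2.82 to 26.4 FPKM (median 6.87) in vehicle and from 1.16 to 2.79 FPKM (median 1.93) in 90 mpk mice, just without overlap, and fell by 2.41. The activin subunit Inhba (-2.60), the cross-linking enzyme Lox (-2.75), fibronectin, Fn1 (-1.25), and Tgfbi (-0.98), a matrix protein induced by TGF-β, fell too. Mmp10, a stromelysin of wound edges, ranged from 2.58 to 53.4 FPKM (median 11.1) in vehicle and from 0.62 to 2.34 FPKM (median 1.58) in 90 mpk mice. All vehicle mice lay above all 90 mpk mice, with a log2 fold change of -4.03. Mmp3 (-3.57), Adamts4 (-3.27) and Adamts9 (-1.42), proteases of proteoglycans and other matrix, fell as well. Acta2, smooth muscle actin and a marker of myofibroblasts, did not pass the test, at 0.20 (adjusted p = 0.327).

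Epithelial genes differed by cell type in direction, and most of their calls were lost without the 9 mice. Of 9 deep crypt secretory and pentraxin genes 4 rose and 1 fell (median 0.54), and 0 were called without those mice. Among all genes 7.12% were higher and 11.1% lower. Mptx1 (ENSMUSG00000026531, chr1:174158084-174160439, plus strand on GRCm39), a pentraxin secreted by intestinal epithelium, ranged from 43.1 to 2015 FPKM (median 396) in vehicle and from 2825 to 5313 FPKM (median 4016) in 90 mpk mice. Every 90 mpk mouse lay above every vehicle mouse, and also above the sham median of 1141 FPKM. The log2 fold change was 2.65 (SE 0.57, adjusted p = 0.00103), and 1.98 without the 9 mice (adjusted p = 0.0795). Values of Mptx1 and Mptx2 are uncertain where the paralogs share reads. Ang4, an antimicrobial ribonuclease, ranged from 2.19 to 1125 FPKM (median 137) in vehicle and from 1015 to 2561 FPKM (median 1875) in 90 mpk mice, with a sham median of 586 FPKM. Vehicle 1 and 10, which also had low neutrophil sums, overlapped with the 90 mpk mice, and the log2 fold change was 2.59 (SE 0.73, adjusted p = 0.0111). The member that fell was the phospholipase Pla2g2a (-1.37). The summed list had a median of 9454 CPM at 90 mpk, 3189 CPM in vehicle and 3081 CPM in sham mice.

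Of 17 goblet cell genes 4 rose and 1 fell (median 0.11), and 0 were called without the 9 mice. Among all genes 7.12% were higher and 11.1% lower. Ang4 is counted both here and in the deep crypt list, whose rises also include Kit. Itln1, a lectin that binds microbial sugars, ranged from 3.08 to 175 FPKM (median 48.4) in vehicle and from 117 to 602 FPKM (median 299.9) in 90 mpk mice. The groups overlapped through vehicle 10, and the log2 fold change was 2.31 (adjusted p = 0.00272). Atoh1, the factor that commits cells to secretory fates, ranged from 15.9 to 36.6 FPKM (median 26.4) in vehicle and from 34.7 to 45.6 FPKM (median 39.5) in 90 mpk mice, with a narrow overlap, and rose by 0.52 on the log2 scale. The protease Clca1 rose by 1.28 and the lectin-like Zg16 fell by 0.82 on that scale. The main mucin Muc2 did not pass the test, at 0.11. Of 8 tuft cell genes 4 rose and 0 fell, 3 of which were called without the 9 mice. They were the ion channel Trpm5, the adaptor Sh2d6 (1.01), the tuft cell factor Pou2f3 (1.18) and Hpgds (0.30), which makes prostaglandin D2. Trpm5 ranged from 0.2 to 0.77 FPKM (median 0.36) in vehicle and from 0.55 to 1.09 FPKM (median 0.79) in 90 mpk mice, with a sham median of 0.87 FPKM, and its groups overlapped. Its log2 fold change was 0.89 (SE 0.22, adjusted p = 0.00328). The call of Pou2f3 was lost without vehicle 2 (adjusted p = 0.0526) and that of Hpgds in 14 of the 20 fits with 1 mouse left out (adjusted p up to 0.104).

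Absorptive colonocyte genes were mostly not called, with 1 of 22 higher and 2 lower (median -0.08), against 7.12% and 11.1% of all genes. Car2, the cytosolic carbonic anhydrase, ranged from 129.8 to 345 FPKM (median 257) in vehicle and from 314 to 428 FPKM (median 359) in 90 mpk mice, below the sham median of 453 FPKM, and rose by 0.59 on the log2 scale. Slc16a1, a carrier of butyrate and lactate (-0.35), and the sodium channel subunit Scnn1g (-1.42) fell. Slc26a3, the chloride and bicarbonate exchanger, ranged from 22.3 to 79.5 FPKM (median 54.9) in vehicle and from 45.1 to 130.3 FPKM (median 66.3) in 90 mpk mice. The groups overlapped, with a log2 fold change of 0.38 and an interval from -0.10 to 0.86, and the sham median was 184 FPKM. Enteroendocrine genes had 1 of 13 higher, the somatostatin gene Sst (0.71), with a median of 0.14, against 7.12% of all genes higher. The calls of Car2, Scnn1g and Sst were lost without the 9 mice. That of Scnn1g was also lost with a rank-sum test, with quantile normalization and without vehicle 6 or vehicle 7.

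Of 17 tight junction genes 1 rose and 3 fell (median 0.04), and 0 rose and 1 fell without the 9 mice. Over all genes 7.12% were higher and 11.1% lower. Cldn8, a sealing claudin of the distal colon, ranged from 23.1 to 62.1 FPKM (median 37.2) in vehicle and from 11.6 to 16.6 FPKM (median 15) in 90 mpk mice, around the sham median of 15.5 FPKM. The groups did not overlap, and the log2 fold change was -1.46 (SE 0.20, adjusted p = 9.60e-06). Cldn15, which forms cation pores, ranged from 29.9 to 60.2 FPKM (median 46.5) in vehicle and from 62.2 to 72.5 FPKM (median 68.4) in 90 mpk mice, again without overlap, with a sham median of 67.3 FPKM, and rose by 0.55. That call was lost without vehicle 5 or vehicle 7 (adjusted p of 0.0601 and 0.0511). Cldn4 (-1.25) and the leaky claudin Cldn2 (-0.42) fell, not so without the 9 mice.

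Genes of stem cells and of the wounded epithelium differed, against 7.12% of all genes higher and 11.1% lower. Of 13 stem cell and Wnt target genes 6 rose and 2 fell (median 0.17), and 0 rose and 1 fell without the 9 mice. Those that rose include Axin2 (0.53), a feedback inhibitor of Wnt signals, and Ascl2 (0.79), the factor of crypt base stem cells. The adhesion receptor Cd44 fell by 0.88 and the crypt gene Olfm4 by 4.56 on the log2 scale. Of 11 regenerative epithelium genes 5 fell and 0 rose (median -0.77, and 2 without those mice). Ereg, a ligand of the EGF receptor, ranged from 5.73 to 62.6 FPKM (median 15) in vehicle and from 2.02 to 4.47 FPKM (median 3.22) in 90 mpk mice. The groups did not overlap, and the log2 fold change was -2.98, while its relative Areg had -1.71 and Anxa1, a mediator that ends inflammation, -0.77. Proliferation genes fell in 15 of 20 cases and rose in 0 (median -0.68), but in 2 without the 9 mice. Mki67, the gene of the Ki-67 antigen, ranged from 8.39 to 32.7 FPKM (median 16.9) in vehicle and from 8.48 to 13.9 FPKM (median 10.3) in 90 mpk mice, with overlap and a sham median of 14 FPKM, and fell by 0.73. The ribonucleotide reductase subunit Rrm2 (-1.32), Ccna2 (-0.88), a cyclin of S phase, and topoisomerase Top2a (-0.79) fell too.

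In the wall, 5 of 14 smooth muscle genes rose and 0 fell (median 0.43), and 0 were called without the 9 mice. For this and the next lists, the shares over all genes were 7.12% higher and 11.1% lower. Lmod1, which nucleates actin filaments in smooth muscle, ranged from 8.82 to 29.8 FPKM (median 17.2) in vehicle and from 24 to 41.7 FPKM (median 29.9) in 90 mpk mice. Vehicle 1 and 4 overlapped with the 90 mpk mice, and it rose by 0.75 on the log2 scale, with Smtn (0.64), Myl9 (0.68) and Mylk (0.51), genes of the contractile apparatus. Neuron and glia genes rose in 4 and fell in 3 of 16 cases. S100b, a marker of enteric glia, ranged from 0.72 to 2.11 FPKM (median 1.17) in vehicle and from 2.28 to 3.63 FPKM (median 2.8) in 90 mpk mice, with no overlap and a log2 fold change of 1.18. The glial factor Sox10 rose by 0.80, while Fabp7, a fatty acid carrier of glia, fell by 2.01 with no overlap and the receptor Ret fell by 0.64. Of the 16 genes Fabp7 was the one called without the 9 mice. Interstitial cells of Cajal, the pacemakers of the gut, had 2 of 5 genes higher, Kit and Etv1 (0.32), and 0 without the 9 mice. The call of Etv1 was also lost in 16 of the 20 fits with 1 mouse left out (adjusted p up to 0.0975).

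Of 18 endothelial genes 2 rose and 3 fell (median -0.15), while 7 fell without vehicle 1 and 0 without the 9 mice. The shares over all genes were 7.12% higher and 11.1% lower. Selp (-2.61) and Sele (-2.32), the selectins that catch leukocytes on inflamed vessels, and Apln (-0.81) fell, while Esm1 (0.78), a marker of sprouting endothelium, rose and was called without the 9 mice as well. Lymphatic genes had 1 of 6 higher, the lymphatic factor Prox1 (0.38), and 2 lower, Pdpn (-1.47), which fibroblasts also express, and Lyve1 (-0.65), which macrophages also express. Without the 9 mice Pdpn kept its call, while Prox1 (adjusted p = 0.333) and Lyve1 (log2 fold change -0.08, adjusted p = 0.86) lost theirs. The call of Lyve1 was lost in 5 of the 20 fits with 1 mouse left out as well.

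Circadian clock genes changed with and without the 9 mice. In the clock, the proteins of Arntl (BMAL1) and of Clock or its relative Npas2 bind E-boxes and drive the Per, Cry and Nr1d genes, which repress them in turn, and output factors such as Dbp, Tef and Hlf bind D-boxes. Of 10 repressing and output genes 9 rose and 0 fell (median log2 fold change 1.5), and 9 without the 9 mice, against 7.12% of all genes higher. Of 5 genes of the activating arm 4 fell and 0 rose (median -1.99), and 4 without those mice, against 11.1% of all genes lower. That list also holds Nfil3 and Cry1, which code for repressors. The upstream windows of Ciart and Per3 are shown because they hold the most E-box and D-box letters of the clock genes with a window. Capitals mark CACGTG in Ciart, in which it occurs 3 times, and TTATGNAA in Per3, in which it occurs 2 times, in the 250 bases before the start site, from RefSeq on GRCm38.p6.
Ciart (chr3:95882229-95882478, minus strand): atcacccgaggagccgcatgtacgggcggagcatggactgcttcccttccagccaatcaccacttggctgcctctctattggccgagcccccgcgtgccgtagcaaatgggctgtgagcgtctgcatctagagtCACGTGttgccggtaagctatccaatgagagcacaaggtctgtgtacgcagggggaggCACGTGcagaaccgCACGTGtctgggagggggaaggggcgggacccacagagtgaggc
Per3 (chr4:151044666-151044915, minus strand): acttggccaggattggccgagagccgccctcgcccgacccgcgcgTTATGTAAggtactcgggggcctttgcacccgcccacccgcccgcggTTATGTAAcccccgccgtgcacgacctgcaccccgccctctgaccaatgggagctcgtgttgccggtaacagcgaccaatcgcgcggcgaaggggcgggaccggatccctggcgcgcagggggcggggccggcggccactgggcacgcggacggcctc
On both strands CACGTG was found in 6.02% of the 32851 windows and in 4 of the 9 repressing and output genes with a window (Ciart, Tef, Bhlhe41 and Per1). TTATGNAA was found in 3.07% of windows and in 2 of those 9 genes, Per3 and Per1.

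Arntl (ENSMUSG00000055116, chr7:112806672-112913333, plus strand on GRCm39) ranged from 2 to 5.86 FPKM (median 3.86) in vehicle and from 0.78 to 1.31 FPKM (median 0.955) in 90 mpk mice, and had a sham median of 1.1 FPKM. Every vehicle mouse lay above every 90 mpk mouse, and vehicle 8 was the lowest vehicle mouse. The log2 fold change was -2.14 (SE 0.20, adjusted p = 2.09e-09). Npas2 ranged from 2.32 to 4.77 FPKM (median 3.98) in vehicle and from 0.57 to 1.38 FPKM (median 0.95) in 90 mpk mice, with no overlap and -1.99 (SE 0.19, adjusted p = 2.09e-09). Nfil3, which codes for a repressor of D-box genes that immune cells also use, ranged from 5.01 to 30.3 FPKM (median 10.2) in vehicle and from 1.41 to 3.7 FPKM (median 2.37) in 90 mpk mice. No vehicle mouse lay within the 90 mpk range, and it fell by 2.63 on the log2 scale (adjusted p = 3.45e-06). Clock fell by 0.36, and Cry1 did not pass the test, at -0.35 (adjusted p = 0.0513).

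Dbp ranged from 0.41 to 10.6 FPKM (median 3.65) in vehicle and from 20.9 to 28.7 FPKM (median 24.4) in 90 mpk mice, close to the sham median of 23.3 FPKM. The groups did not overlap, with vehicle 8, 1 and 10 as the highest vehicle mice, and the log2 fold change was 2.45 (SE 0.39, adjusted p = 4.73e-05). Ciart, a repressor of the clock, ranged from 0.14 to 2.54 FPKM (median 1.05) in vehicle and from 3.43 to 5.42 FPKM (median 4.81) in 90 mpk mice, and Per3 ranged from 0.42 to 4.05 FPKM (median 2.17) in vehicle and from 6.01 to 7.5 FPKM (median 6.3) in 90 mpk mice. Neither gene overlapped between the groups, and the log2 fold changes were 2.09 (SE 0.29, adjusted p = 1.44e-05) and 1.65. Tef (1.69), Hlf (1.9), Per2 (1.10) and Nr1d2 (1.36) rose without overlap too, and Nr1d1 (1.13) and Bhlhe41 (1.15) with overlap. Per1, which is also induced by hormones and stress, did not pass the test, at 0.49 (adjusted p = 0.118). In all, 7 of the 10 repressing and output genes and 3 of the 5 of the activating list did not overlap between the groups, against 0.446% and 0.312% of all genes.

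**Figure D4:**
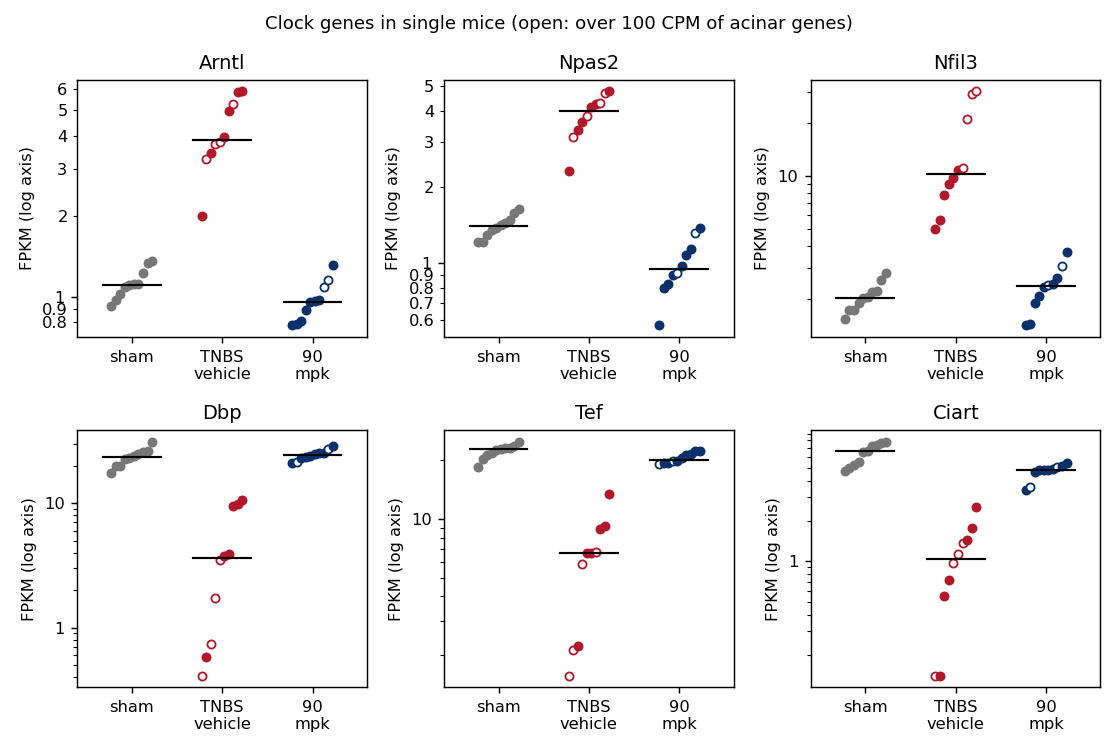
FPKM on a log axis of the clock genes Arntl, Npas2, Nfil3, Dbp, Tef and Ciart in sham, vehicle and 90 mpk mice, 1 point per mouse, with a line at each median and open points for mice over 100 CPM of acinar genes. The 90 mpk mice lie apart from the vehicle mice in all 6 genes, with Dbp medians of 3.65 FPKM in vehicle, 24.4 FPKM in 90 mpk and 23.3 FPKM in sham mice.

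Metabolic and stress genes differed by list, against 7.12% of all genes higher and 11.1% lower. Hypoxia and glycolysis genes fell in 10 of 15 cases and rose in 0 (median -0.39), but in 1 without the 9 mice. Hk2, the hexokinase that starts glycolysis, ranged from 16.2 to 26.3 FPKM (median 19.3) in vehicle and from 11.9 to 16.6 FPKM (median 12.8) in 90 mpk mice, with a log2 fold change of -0.66, and its groups overlapped only slightly. Eno1 (-0.48), the peptide hormone Adm (-1.13) and the glycolytic regulator Pfkfb3 (-1.26) fell too. Unfolded protein response genes fell in 3 of 13 cases, Chac1 (-2.40), Asns (-0.82) and Trib3 (-1.37), targets of the ATF4 branch, of which 0 were called without the 9 mice and Trib3 was then higher (0.29, not called). Immediate early genes fell in 2 of 19 cases and rose in 0 (median 0.03), near the 11.1% of all genes that were lower. Those that fell were Ier3 (-1.78) and Nr4a2 (-0.55). With a rank-sum test 0 fell, without the 9 mice 1 did and Ier3 was at -0.56 (adjusted p = 0.299), and with voom weights 4 rose. In edgeR 0 of 12 heat shock genes, 0 of 21 genes of mitochondrial energy and fatty acid oxidation, 0 of 9 of the mitochondrial genome, 0 of 14 of cholesterol synthesis, 0 of 7 tryptophan enzymes and 0 of 6 distal Hox genes were called. At an unadjusted p under 0.05 there were 2 heat shock genes, both higher, 1 mitochondrial energy gene in each direction and 0 in the other lists. Over DESeq2 and the other alternatives the most called were 2 heat shock genes and 1 distal Hox gene with only the 2 groups, 3 genes of the mitochondrial genome with a rank-sum test, 1 mitochondrial energy gene with quantile normalization and 0 in the other lists, all higher.

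Genes of neighbouring tissues also differed, against 7.12% of all genes higher and 11.1% lower. Of 17 acinar genes 13 fell and 0 rose (median -5.80), but 5 fell with only the 2 groups in the fit, 0 with a rank-sum test, and 1 rose and 0 fell without vehicle 6 alone or without the 9 mice. Summed over all 20 listed acinar genes, the medians were 240.4 CPM in vehicle and 359.6 CPM in 90 mpk mice, and 6 of 10 vehicle mice lay below every 90 mpk mouse. Over the 17 that were under 1 FPKM in sham mice, the medians were 7.15 CPM in vehicle and 6.66 CPM in 90 mpk mice. Squamous epithelium genes, which mark the anal margin or metaplasia, fell in 6 of 7 cases (median -1.52), 1 of them without the 9 mice, and their sum ran from 11.4 to 126 CPM in vehicle and from 5.51 to 12.4 CPM in 90 mpk mice. Krt13, a keratin of such epithelium, ranged from 1.11 to 46 FPKM (median 3.07) in vehicle and from 0.03 to 1.84 FPKM (median 0.815) in 90 mpk mice. It was highest in vehicle 9, 7, 5 and 2, with a log2 fold change of -4.09. Adipocyte genes had 1 of 8 higher, Pck1 (0.57), and 0 lower, and Pck1 was not called without the 9 mice (adjusted p = 0.212). The other 7 had negative log2 fold changes (median of the 8 genes -1.17), with sums from 219.9 to 2095 CPM in vehicle and from 252 to 1079 CPM in 90 mpk mice. Of 3 tested plasma and liver genes 2 rose, albumin, Alb (1.74), and transthyretin, Ttr (0.95), of which Ttr was lost without the 9 mice (adjusted p = 0.258). Of 5 hemoglobin genes 0 were called in edgeR, and 0 had an unadjusted p under 0.05, but all 5 were higher with voom weights.

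Between 90 mpk and the other doses few genes were called in the same fit of 40 TNBS mice. In 1 mouse at 10 mpk and 1 at 30 mpk Xist, the transcript of X inactivation, was under 1 FPKM, against at least 7.86 FPKM in all other mice. Summed with the Y-linked genes Ddx3y, Uty, Kdm5d and Eif2s3y, Xist came to 0.9353 CPM in the lowest 10 mpk mouse. The lowest sum at 30 mpk was 1.795 CPM, so the Y-linked genes were near 0 in these mice too. The labels give no sex, and the cause of the low Xist was not tested. Against 30 mpk 66 genes (0.368%) were called, 17 higher (0.0948%) and 49 lower (0.273%) at 90 mpk. That count depends on the fit, with 224 genes in DESeq2, 586 with a replicate block and 3071 with only the 20 mice of the 2 doses. These hold 62, 66 and 66 of the 66 genes. Without a filter 46 genes were called, 42 of them among the 66, and without the 9 mice 64, of which 39 were. Without the 2 mice low in Xist 107 genes were called, 60 of the 66 among them. Of 19 immediate early genes, which cells switch on within minutes of a stimulus, 12 were lower at 90 than at 30 mpk and 0 higher, so that this list holds 12 of the 66 genes. Atf3, a factor induced by stress, ranged from 3.88 to 15.8 FPKM (median 6.37) in 90 mpk and from 19.3 to 196 FPKM (median 69.2) in 30 mpk mice, with medians of 9.24 FPKM in vehicle and 8.82 FPKM in sham mice. The 2 doses did not overlap, and the 90 mpk mice lay in or near the vehicle range. The log2 fold change of 90 against 30 mpk was -3.60 (SE 0.51, adjusted p = 1.19e-04). Hbegf, a ligand of the EGF receptor released by stressed epithelium, ranged from 1.11 to 3.25 FPKM (median 1.57) in 90 mpk and from 4.48 to 34.6 FPKM (median 11.3) in 30 mpk mice, again without overlap, with -3.14 (SE 0.43, adjusted p = 8.85e-05). Btg2, an antiproliferative early gene, ranged from 38.5 to 69 FPKM (median 45.2) in 90 mpk and from 46.3 to 195 FPKM (median 92.6) in 30 mpk mice, with overlap and -1.24 (SE 0.19, adjusted p = 2.81e-04).

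The other early genes that were lower than at 30 mpk were Fosb (-2.98), Egr1 (-2.01), Fos (-1.78), Nr4a1 (-1.74), Dusp1 (-1.66), Zfp36 (-1.38), Junb (-1.25), Ier2 (-1.25), Jun (-1.18) and Jund (-0.77). Sfn, a 14-3-3 protein of epithelium, was lower as well (-1.33), as were Areg (-2.48) and the predicted genes Gm26532 (-1.64) and Gm7850 (-1.40). Kit was higher at 90 than at 30 mpk, by 0.52. No AhR target and no neutrophil, cytokine, collagen or clock gene of the lists was called between 90 and 30 mpk. In that fit of all TNBS mice 0.368% of all genes were called, so no call in lists this short is near that share. Fits with only these doses and with a replicate block called 3071 and 586 genes. Calls within these lists are not given for those fits, so equal levels at 90 and 30 mpk are not shown.

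Against 10 mpk 18 genes (0.1%) were called, 6 higher (0.0335%) and 12 lower (0.0669%) at 90 mpk, and 181 in DESeq2, 89 with only the 2 doses and 259 without the mice with acinar transcripts. Without the 2 mice low in Xist 10 of the 18 remained and no others were called. Atf3 was lower here too, with a log2 fold change of -2.68 (SE 0.49, adjusted p = 0.00893), and so was Hbegf, with -2.27 (SE 0.42, adjusted p = 0.00893). Mrc1 had a median of 9.31 FPKM at 10 mpk against 5.39 at 90 mpk, a log2 fold change of -0.81 (SE 0.13, adjusted p = 0.00327). The early growth response factor Klf10 (-0.75), Zbtb16, a factor induced by glucocorticoids (-1.86), and the laminin chain Lamb1 (-0.51) were lower, and Atoh1 (0.60), Fam189a1 (0.68) and Alb (1.43) higher at 90 mpk. From the collagen and metalloproteinase lists 1 gene each was lower at 90 mpk, Col6a3 (-0.73) and Mmp10 (-3.04). At 10 mpk Mmp10 ranged from 1.81 to 75.1 FPKM (median 3.535). Of the genes named here Alb, Mmp10 and Col6a3 lost their calls without the 2 mice low in Xist (adjusted p = 0.053, 0.053 and 0.0696).

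**Figure D5:**
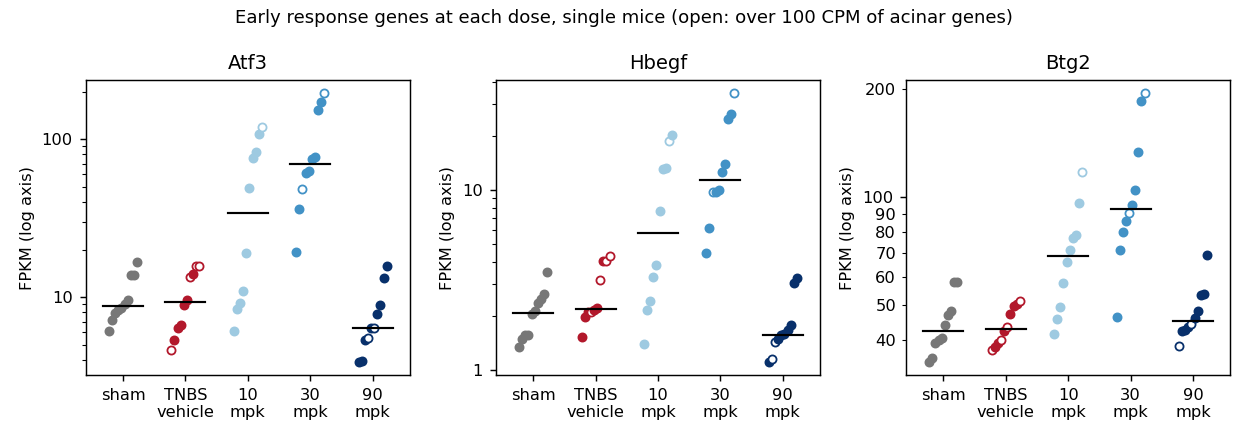
FPKM on a log axis of Atf3, Hbegf and Btg2 in all 5 groups, 1 point per mouse, with a line at each median and open points for mice over 100 CPM of acinar genes. Atf3 medians are 69.2 FPKM at 30 mpk and 6.37 FPKM at 90 mpk, against 9.24 FPKM in vehicle mice.

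Against sham, whose labels name no TNBS, 8111 genes (45.2%) were called in a fit of those 20 mice, 4187 higher (23.4%) and 3924 lower (21.9%) at 90 mpk. With all 50 mice in 1 fit 4399 genes were called. Collagens were higher than in sham in 15 of 18 cases and lower in 0 (median log2 fold change 0.83), fibrosis mediators in 29 of 33 and macrophage genes in 19 of 22, with 1 lower. Mrc1 was among them at 0.28, Col3a1 at 1.17 and Col4a1 at 1.07. Neutrophil genes were higher than in sham in 10 of 14 cases (median 1.08) and cytokines in 4 of 11. Of 22 colonocyte genes 19 were lower than in sham and 1 higher (median -0.58), among them Car4 (-1.19), the membrane carbonic anhydrase. Slc26a3 was lower by a log2 fold change of -1.34 (SE 0.18, adjusted p = 1.30e-05). Of 11 AhR targets 6 were lower and 1 higher (median -0.31), with Cyp1a1 at -0.31 (SE 0.30, adjusted p = 0.425). Mast cell genes were higher in 10 of 12 cases (median 2.45), and MHC class II and dendritic cell genes in 11 of 14 (median 0.67). Clock output genes had a median of -0.17 against sham, with 6 of 10 called lower and 0 higher.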

How the data were processed

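The table the authors deposited holds 56691 genes, each with a raw read count and an FPKM value per library, GRCm39 coordinates and, for all but 2639, a symbol. HISAT2 2.2.1, HTSeq 0.6.1, cutadapt 1.9.1, DESeq2 and the build GRCm39 are named per the submitters' processing notes. Their roles, the strand setting and the handling of ambiguous reads are not given there, so overlapping and antisense genes and close paralogs are uncertain. The deposited FPKM were checked against counts, exon length and library total, and 99.997% of values with at least 500 counts lay within 1%. All sample columns were mapped by name, and 0 were left unused.

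Counts were tested in R 4.3.3 with edgeR 4.0.16 (glmQLFit and glmQLFTest, robust, TMM scaling, filterByExpr with a count minimum of 10). The contrasts of 90 mpk with vehicle and with the other doses were fitted on the 40 TNBS mice, and that with sham on 20 mice. The threshold for a call was 0.05 after Benjamini-Hochberg adjustment over all tested genes, and 95% intervals are given. Of 709 genes in 50 lists 666 were tested. The members and lists were chosen with earlier results of these data known, so lists are described by counts and medians and not tested. Named genes are all tested AhR targets and pathway components, the 8 largest rises and falls at 2 FPKM or more (without predicted genes, pseudogenes and receptor segments), up to 4 called members of each list by p (or 2 by FPKM where 0 were called) and up to 6 genes per dose contrast. These are 178 genes, some of which are not reported here. Chosen after their values were seen were Abcc2, Acta2, Areg, Arg1, Bhlhe41, Car4, Ccl6, Ccl9, Ccl20, Clca1, Col1a1, Col3a1, Cry1, Cxcl2, Cxcl10, Fmo1, Fn1, Lif, Lox, Mmp3, Mmp10, Muc2, Nos2, Nr1d1, Nr1d2, Per1, Per2, Pla2g2a, Reg3b, Reg3g, Slc26a3, Tnf and the early genes other than Atf3, Btg2, Ier3 and Nr4a2. Col6a3 was chosen in that way too. The tests, without the replicate block, were run on simulated counts that had the same dispersion per gene in every group. There edgeR recovered 58% of the smaller and 82% of the 2-fold changes, with 11 false calls. For limma CPM stood in for FPKM. The simulation lacked the larger spread of the vehicle mice, so it cannot show how the tests perform with it. Alternatives used DESeq2 1.42.0, RLE size factors, no filter, other sets of mice, a replicate block, limma 3.58.1 on log2(FPKM + 0.5), a rank-sum test, voom weights, quantile normalization and each mouse left out. Leaving out the 9 mice with acinar transcripts, and the 2 low in Xist, was chosen after seeing the data. Promoter windows are RefSeq's, on GRCm38.p6; the NF-κB consensus replaced a narrower spelling that had been searched first.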

Additional observations from a re-analysis of the deposited data

Results flagged for a closer look

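For each named gene in vehicle and 90 mpk mice, the gap between the highest or lowest mouse and its nearest neighbour was divided by the range of the group. Of 352 such groups 17 (4.83%) stood out, a share close to the 1 in 20 that chance flags. In vehicle mice the lowest mouse stood apart for Arntl in mouse 8 (share of the range 0.525, with 14.5 against 25.8 CPM in the nearest mouse), Atp5a1 (0.515) and Hoxb13 (0.533) in mouse 5, and Clock (0.476), Prox1 (0.607) and Ugt1a7c (0.534) in mouse 9. The highest mouse stood apart for mt-Cytb, a gene of the mitochondrial genome, in vehicle 9 (0.739, with 24090 against 10710 CPM).

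Among 90 mpk mice mouse 9 was highest for the MHC class II genes H2-Aa (0.498), H2-Ab1 (0.562) and H2-Eb1 (0.501) and lowest for Clock (0.475). Mouse 7 was highest for the chaperones Hsp90ab1 (0.559) and Hspa8 (0.472) and lowest for Scnn1g (0.48). Mouse 8 was lowest for Hmgcs1 (0.563) and Selp (0.473). Mouse 6 was highest for Spp1 (0.547, with 14.4 against 3.59 CPM).

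The doses differed in edgeR's direct test. Against 30 mpk the log2 fold change of 90 mpk was -3.60 for Atf3, -3.14 for Hbegf, -1.24 for Btg2, -1.33 for Sfn, -1.64 for Gm26532, -1.40 for Gm7850 and 0.52 for Kit. Against 10 mpk it was -2.68 for Atf3, -2.27 for Hbegf, -0.75 for Klf10, -0.81 for Mrc1, -0.51 for Lamb1, -1.86 for Zbtb16, 0.60 for Atoh1, 0.68 for Fam189a1 and 1.43 for Alb.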

How the results depend on the processing

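The 3266 genes called in 90 mpk against vehicle were 3266 with RLE size factors, 3601 with DESeq2, 2804 without a filter, 3106 with only these 2 groups, 3948 with all 50 mice, 2891 with limma on log2 FPKM, 2696 with a rank-sum test, 3994 with voom weights, 3065 with quantile normalization and from 2615 (without vehicle 5) to 3719 (without vehicle 10) with a mouse left out. Without the 9 mice with acinar transcripts there were 613. The 696 genes changed at least 2-fold were 1084 without a filter, 260 with limma on log2 FPKM, 438 with a rank-sum test, 443 with voom weights, 181 without those 9 mice and from 604 to 796 with a mouse left out. The 66 genes of 90 against 30 mpk were 224 with DESeq2, 3071 with only the 2 doses and 107 without the 2 mice low in Xist, and the 18 of 90 against 10 mpk were 181 with DESeq2, 89 with only the 2 doses, 259 without the 9 mice and 10 without the 2 mice low in Xist. The 8111 genes against sham were 4399 with all 50 mice. The cause of these differences was not tested. Of 141 called named genes 68 lost the call without the 9 mice, 27 with a rank-sum test, 15 with quantile normalization, 14 each without a filter and with limma, 11 with voom weights and at most 14 with a mouse left out (vehicle 6). The 21 that lost the call with some mouse left out included Cd74, Ces1c, Cldn2, Cldn15, Ctrc, Ctrl, Etv1, H2-Aa, H2-Ab1, H2-Eb1, Hpgds, Ifitm3, Lyve1, Myh11, Mylk, Pnliprp1, Pou2f3, Scnn1g and Trib3, at adjusted p values up to 0.488 for the acinar gene Ctrl without vehicle 6. Acinar genes and 2 others turned direction, with voom weights Ctrc at 0.39, Ctrl 0.50, Pnliprp1 1.61, Reg1 0.34 and Trib3 0.11, and without the 9 mice Ctrc 0.39, Ctrl 0.39, Pnliprp1 1.97, Reg1 0.33 and Trib3 0.29. The median log2 fold change of all genes shifted most with quantile normalization, by 0.0435. Same-numbered vehicle and 90 mpk mice correlated by -0.24 to 0.345 and best with their own number in 2 of 10 cases. These correlations cannot decide whether the numbers pair the mice, since each number stands for a single mouse per group. With the replicate number as a block 3186 genes were called, 603 at least 2-fold, 586 against 30 mpk, 13 against 10 mpk and 7220 against sham.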
